A study of Mus musculus with 2 samples.

Results

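Cpt1a, Cpt2, Acadm, Acadl, Hadha, Ehhadh, Acaa1b and Bdh1 encode enzymes that oxidize fatty acids or interconvert ketone bodies. They were chosen by name for this function, though with earlier results of these data known. They are 8 of the 37069 distinct gene names on the array. In the prefrontal cortex (PFC) none of the 8 differed by more than 2-fold between mice exposed to chronic mild stress (CMS) and control (C) mice. The ratios ran from 1.29-fold for Ehhadh to a log2 ratio of -0.15 for Bdh1. Past 2-fold in either direction were 2.52% of all genes with a ratio, and 1.96% were higher in the CMS pool. Acox2 and Acot12, which act in neighbouring steps, had over 2-fold higher signals in the CMS pool, among 19 genes of a peroxisomal list. For Acot12 this is a lower bound, as its probe was not well above background in C, and some settings lost it. Of 27 hepatocyte marker genes, 24 were over 2-fold higher in the CMS pool.

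The mice of both groups were males of the inbred strain C57Bl/6 N sea, 9 to 10 weeks old at the start, and the labels name no transgene or deletion. The CMS mice lived alone and met a changing series of mild stressors for 4 weeks, whereas C mice shared cages and had ordinary care, so that isolation and stressors cannot be told apart. PFC was taken the day after the last stressor, and the RNA of 7 mice was mixed for each group as the design text gives it (the study's methods give another number for the arrays). Each pool was hybridized to 1 one-color Agilent array, both on 1 slide, which gives a relative level of RNA for each probe. With 1 array per group there was no replicate, the spread between mice is unknown, and the groups could not be tested against each other.

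Fatty acids enter mitochondria as carnitine esters and are then shortened stepwise to acetyl-CoA by dehydrogenation, hydration, a second dehydrogenation and thiolysis. Peroxisomes shorten very long chains and dicarboxylic acids by a parallel set of enzymes. Liver turns surplus acetyl-CoA into ketone bodies, which the brain takes up and burns, and in brain the oxidation of fatty acids is low and lies largely in astrocytes. The nuclear receptor PPARA raises many of these genes in fasted liver.

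Signals below are background-subtracted intensities of a probe, scaled so that the mean over the probes of an array is 2500. C and CMS stand for the pools. A log2 ratio is CMS over C, and a gene was called where its ratio passed 2-fold. Of the 27098 gene names with a ratio, 684 (2.52%) were called in either direction and 531 (1.96%) were higher in CMS. Higher genes were 77.6% of those called, and 63.2% when the arrays were not scaled. Under the other alternatives given below the share ran from 58.3% with every probe kept to 87.5% with another background correction. A signal is given with the scanner software's own error for the probe, and between spots of 1 probe the log2 ratio had an SD of 0.13 over 342 probes. Both errors describe the array and leave out the mice. In pooled tissue, fewer cells of a type and less RNA per cell cannot be told apart. Levels of different probes depend on the probe and were not compared.

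The 8 genes were read by 12 probes, of which 11 stood well above background on each array. The other was the second Cpt2 probe, with 13.6 in C and 10.9 in CMS, well above background in neither. Each gene thus had a measured ratio. Where a gene had several probes, the one with the highest mean log2 signal gave the ratio.

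**Figure D1:**
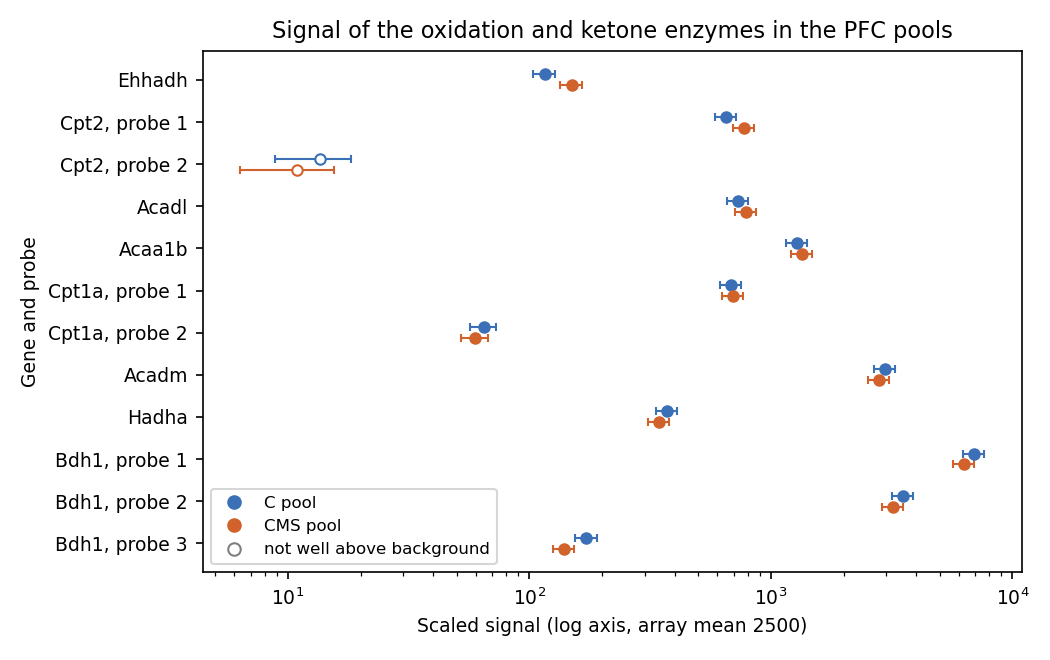
Scaled signal (log axis, array mean 2500) of the 12 probes of the 8 enzymes in C (blue) and the CMS pool (orange), 1 array each. Points are probe means, bars are the scanner's error, and open points mark a probe not well above background. The bars of both pools meet or overlap for most probes, and among probes well above background the widest gaps between points are those of Ehhadh and the third Bdh1 probe. Positions of different probes along the axis are not comparable.

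Cpt1a, the carnitine palmitoyltransferase of the outer mitochondrial membrane that malonyl-CoA inhibits, had a signal of 685 ± 68.6 (scanner error) in C and 698 ± 70.0 in CMS. The log2 ratio was 0.03, and 84.3% of all genes with a ratio had a larger one in size. Both pools held nearly the same level. The Cpt1a probe (NM_013495) was printed on 10 spots, of which 8 were free of outlier marks on both arrays. Those spots ranged from 645 to 734 in C, with a median of 684, and from 636 to 740 in CMS, with a median of 696. The ranges overlapped almost fully, and the CMS signal was the higher one at 3 of 8 spots. The mean of the spot ratios was 0.01 ± 0.10 (SD over 8 spots). A second, dimmer Cpt1a probe read 64.8 in C and 59.6 in CMS, a log2 ratio of -0.12 with a scanner error of 0.25. The choice of probe and scaling thus decided the sign for Cpt1a. Its log2 ratio was above 0 in 10 of 13 settings and ranged from -0.14 to 0.07. The 13 settings are the one used here and 12 alternatives of scaling, background and probe choice. They reuse the same arrays, and several only shift all log2 ratios by a constant or leave bright probes unchanged. A sign kept over the settings is thus no repeat of the measurement.

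**Figure D2:**
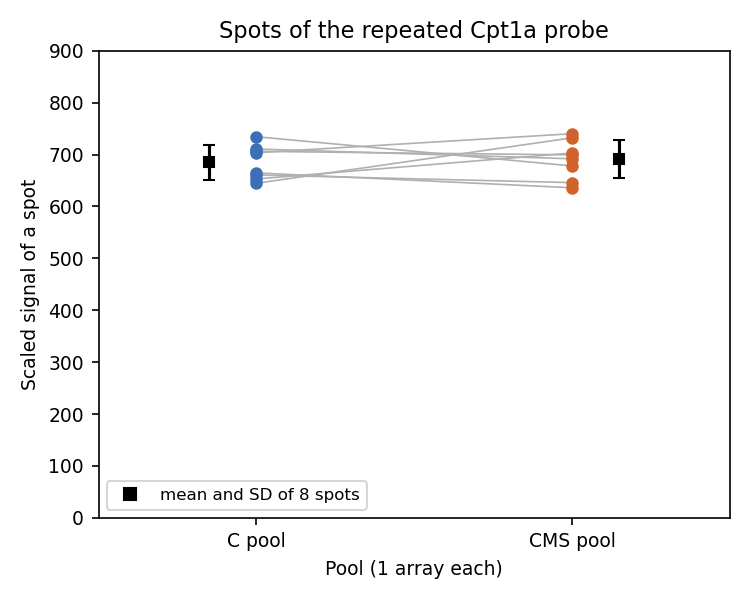
Scaled signal of the Cpt1a probe at each spot used on both arrays, C pool beside CMS pool, with lines joining the same spot position. The spots of both pools cover about the same range, 645 to 734 in C and 636 to 740 in CMS.

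Cpt2, which returns the acyl group from carnitine to CoA at the inner membrane, had 652 ± 65.3 in C and 772 ± 77.3 in CMS. The log2 ratio was 0.24, or 1.18-fold, against a scanner error of 0.20. This was the second largest ratio above 0 among the 8 enzymes, and 21.3% of all genes had a larger one in size. It was above 0 in each of the 13 settings, from 0.07 to 0.27. The other carnitine palmitoyltransferases gave values close to 0 or near background. Cpt1c, the form of neurons, had 2684 in C and 2507 in CMS, a log2 ratio of -0.10. Cpt1b, the muscle form, had 39.5 and 34.0, with a log2 ratio of -0.22 and a scanner error of 0.32. The ratio of Cpt1a exceeded that of Cpt1c by 0.13, less than the error of 0.29 on that difference.

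Acadm, the medium-chain acyl-CoA dehydrogenase, had 2965 ± 296 in C and 2811 ± 281 in CMS. Acadl, the long-chain enzyme of rodents, had 729 ± 73.1 and 785 ± 78.7 in the same order. The log2 ratios were -0.08 for Acadm and 0.11 for Acadl, both within 1 scanner error. Acadm was below 0 in each of the 13 settings, and Acadl was above 0 in 12 of 13, the exception being -0.07 without scaling. Of the other chain lengths, the very long gave a ratio smaller in size than those of Acadm and Acadl, and the short a larger one. Acadvl, for very long chains, had a log2 ratio of 0.01, and Acads, for short chains, one of -0.23 with a scanner error of 0.23 at signals of 95.4 and 81.1.

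Hadha, the alpha subunit of the mitochondrial trifunctional protein, hydrates long enoyl-CoA and oxidizes the product. It had 372 ± 37.5 in C and 344 ± 34.7 in CMS, a log2 ratio of -0.12. Hadhb, the beta subunit with the thiolase activity, had 4173 and 4530, a log2 ratio of 0.12. The complex holds both subunits in equal number, and their ratios differed by -0.23 with an error of 0.29. Acaa2, the thiolase that ends the mitochondrial cycle for shorter chains, was printed on 10 spots. These lay between 4458 and 5007 in C and between 5197 and 5806 in CMS, without overlap. The mean of the Acaa2 spot ratios was 0.24 ± 0.06 (SD over 10 spots), which is the same size as for Cpt2 and well short of 2-fold. The scanner error of the Acaa2 log2 ratio was 0.20, and spots of 1 array give no spread between mice.

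Ehhadh, the peroxisomal bifunctional enzyme that serves dicarboxylic acids, had 116 ± 12.2 in C and 150 ± 15.5 in CMS. The log2 ratio of 0.37 was the largest among the 8 enzymes and 1.74 times its scanner error of 0.21. It was 0.14 under the alternative called normexp here (normexp background correction with an offset of 50 on median intensities, followed by quantile normalization) and 0.20 without scaling. Among all genes, 12.3% had a larger ratio in size. In the band of signals from 100 to 1000, which held 9772 genes, the 5th and 95th percentiles of the log2 ratio were -0.29 and 0.29. Ehhadh lay outside them, while Cpt1a, Cpt2, Acadl and Hadha lay inside. By construction, 5% of the genes of a band lie beyond each limit. Ehhadh also lay near the dim end of its band, and the 7542 genes from 10 to 100 had wider limits of -0.67 and 0.94. The brighter Acadm, Acaa1b and Bdh1 lay inside those of their own band of 1000 to 10000, which held 7200 genes and gave -0.21 and 0.14.

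Acaa1b, a peroxisomal thiolase that is abundant in liver, had 1287 ± 129 in C and 1341 ± 134 in CMS, a log2 ratio of 0.06. Its close paralog Acaa1a had 17058 and 17350, a log2 ratio of 0.02. The difference between these ratios was 0.03, with an error of 0.29. Since the probes may share target RNA, the levels of Acaa1a and Acaa1b are uncertain as separate values.

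Bdh1, the mitochondrial dehydrogenase that interconverts acetoacetate and hydroxybutyrate, had 6959 ± 696 in C and 6276 ± 628 in CMS. The log2 ratio was -0.15. The second Bdh1 probe read 3509 and 3201, a log2 ratio of -0.13, and the third read 172 and 139, a ratio of -0.31 with a scanner error of 0.21. All 3 Bdh1 probes were thus lower in CMS, and the gene stayed below 0 in each of the 13 settings, from -0.32 to -0.12. These probes and settings read the same pair of arrays and do not stand for repeats. Bdh2, the cytosolic enzyme, had 278 and 290, a log2 ratio of 0.06, which differed from that of Bdh1 by -0.21 with an error of 0.29.

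**Figure D3:**
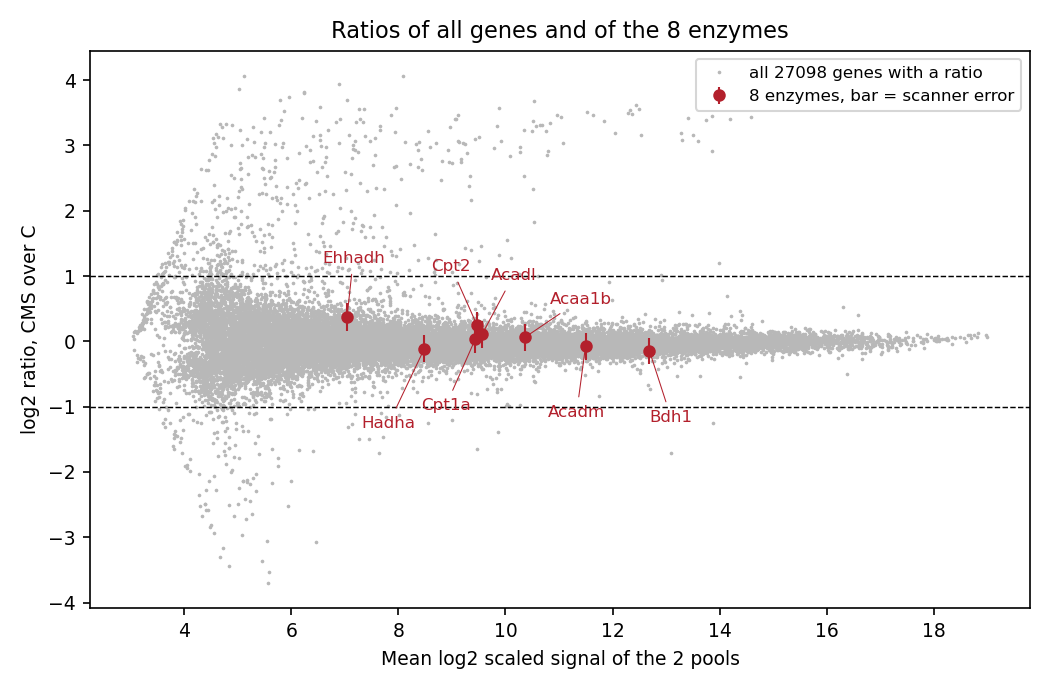
The log2 ratio of CMS over C against the mean log2 scaled signal of both pools for all 27098 genes with a ratio (grey) and the 8 enzymes (red, bars are the scanner's error). Dashed lines mark 2-fold. The 8 enzymes lie between -0.15 and 0.37, inside or at the edge of the grey band.

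As a group, 5 of the 8 log2 ratios were above 0 and 3 below, and the median was 0.04 against -0.03 for all genes. Ratios larger in size than the spot SD were found in 3 of 8 enzymes (37.5%) and in 11120 of 27098 genes (41.0%). Only Ehhadh and Cpt2 had a ratio larger than 1 scanner error, and none had one larger than 2. Called genes were 0 of 8 against 2.52% of all genes, a share at which fewer than 1 call would be counted among 8 genes. Over the 13 settings, the largest fold of any of the 8 was 1.31. Without scaling, Cpt1a, Acadl and Acaa1b were below 0, and the median of the 8 was -0.13.

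**Figure D4:**
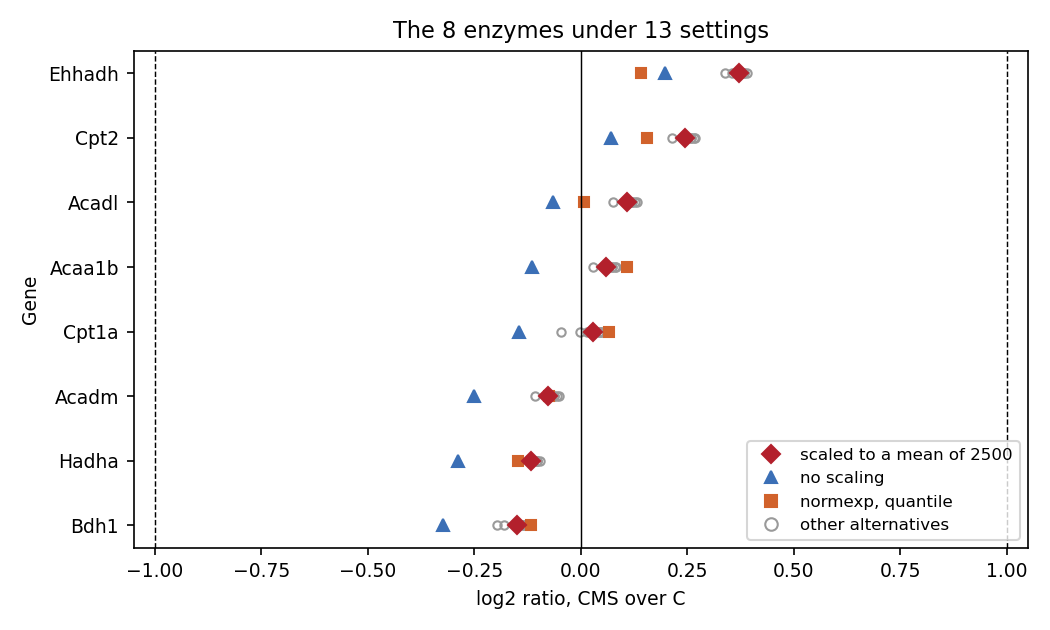
The log2 ratio of each of the 8 enzymes under the main setting and 12 alternatives of scaling, background and probe choice, with the 2-fold limits dashed. Each enzyme stays within -0.32 and 0.39. Cpt2 and Ehhadh lie above 0 and Acadm, Hadha and Bdh1 below 0 in each setting, while Cpt1a, Acadl and Acaa1b cross 0.

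The promoters are shown because PPARA and HNF4A, receptors that drive many such genes in liver, bind repeats of AGGTCA or close variants. For the 8 genes, 9 promoters of 250 bases before the gene start were read from RefSeq (GRCm38.p6), 2 of them for Bdh1. The direct repeat of AGGTCA with 1 free base between the copies, searched on both strands, was in 0 of 9 and in 11 of 32851 promoters (0.0335%). CAAAGTCCA, a motif of HNF4A, was in 0 of 9 and in 126 of all (0.384%). The single AGGTCA was in 2 of 9, Cpt1a and Acadm, and in 14.0% of all promoters. Capitals mark that element, which lies on the opposite strand and so reads as TGACCT, 94 bases before the start of Cpt1a and 249 bases before that of Acadm. A match is only a match of letters, and its lack says nothing beyond this window. The promoter of Cpt1a, at chr19:3323051-3323300 on the plus strand, and that of Acadm, at chr3:153944644-153944893 on the minus strand, are the pair with the element.
Cpt1a: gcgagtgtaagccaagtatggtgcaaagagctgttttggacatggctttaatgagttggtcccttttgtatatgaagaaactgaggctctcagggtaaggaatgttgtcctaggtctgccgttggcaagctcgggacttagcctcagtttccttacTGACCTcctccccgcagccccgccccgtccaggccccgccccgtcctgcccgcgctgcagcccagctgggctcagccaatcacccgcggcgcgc
Acadm: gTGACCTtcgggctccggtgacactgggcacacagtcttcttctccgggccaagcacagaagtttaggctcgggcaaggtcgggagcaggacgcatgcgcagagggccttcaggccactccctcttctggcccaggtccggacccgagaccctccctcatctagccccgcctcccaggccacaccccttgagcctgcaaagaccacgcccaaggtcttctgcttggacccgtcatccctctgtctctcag
Ehhadh, at chr16:21787835-21788084, and Acaa1b, at chr9:119157094-119157343, both on the minus strand, show the peroxisomal pair, which differs in CpG sites. The Ehhadh window holds 12 and the Acaa1b window 2, where the median over all promoters is 6. The quartiles over all promoters are 2 and 16, so neither window lies beyond them.
Ehhadh: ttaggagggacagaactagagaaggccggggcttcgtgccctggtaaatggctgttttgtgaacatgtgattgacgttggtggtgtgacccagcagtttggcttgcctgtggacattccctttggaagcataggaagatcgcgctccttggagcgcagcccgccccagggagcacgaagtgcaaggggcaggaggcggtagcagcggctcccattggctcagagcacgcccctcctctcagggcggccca
Acaa1b: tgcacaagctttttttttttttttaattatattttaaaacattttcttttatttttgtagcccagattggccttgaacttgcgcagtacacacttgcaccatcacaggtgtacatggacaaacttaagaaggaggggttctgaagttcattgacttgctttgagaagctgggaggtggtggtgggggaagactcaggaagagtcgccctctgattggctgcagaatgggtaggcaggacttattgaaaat
Hadha and Hadhb start 273 bases apart and run in opposite directions, so their windows overlap. The 228 bases that both windows share, chr5:30155003-30155230, are shown on the plus strand and hold 15 CpG sites. Their log2 ratios of -0.12 and 0.12 are given above.
Hadha-Hadhb: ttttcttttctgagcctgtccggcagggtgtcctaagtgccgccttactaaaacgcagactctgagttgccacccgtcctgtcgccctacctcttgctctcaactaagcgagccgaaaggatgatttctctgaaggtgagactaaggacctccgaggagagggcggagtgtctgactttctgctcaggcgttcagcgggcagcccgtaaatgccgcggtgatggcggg

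The other genes of the pathway were taken from lists by role. Among 11 genes of the carnitine shuttle and fatty acid activation 0 were called, with a median of 0.02. Of all genes, 2.52% were called, a share at which lists this short may hold no call. Acsl4, an acyl-CoA synthetase, had 6526 in C and 6683 in CMS, and Acsl1 and Acsl6 had log2 ratios of 0.06 and -0.11. Crat, carnitine acetyltransferase, was dim, with 45.5 and 25.2, and its log2 ratio of -0.85 passed 2-fold only without scaling (this gene was picked after its values were seen). Among 16 further genes of mitochondrial beta-oxidation 0 were called (2.52% of all genes), with a median of 0.04. Etfb, of the electron carrier that serves the dehydrogenases, had a ratio of 0.05.

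Among 19 genes of the peroxisomal list 2 were called, both higher in CMS, where 1.96% of all genes were higher, and the median log2 ratio was 0.08. Acox2, the oxidase for branched chains and bile acid precursors, had 32.6 in C and 222 in CMS, 6.80-fold. Acot12, a thioesterase for acetyl-CoA that is known from the cytosol of liver, had 8.75, not well above background, and 48.0, which makes it at least 2.70-fold higher in CMS. The bound for Acot12 takes the lowest signal well above background on the C array, 17.8, in place of its own. Acot12 lost its call under normexp, with a log2 ratio of 0.60. Scp2, a thiolase and sterol carrier, and Abcd3, a transporter of the peroxisomal membrane, had log2 ratios of 0.19 and 0.08.

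Among genes of ketone bodies, Acat1, the thiolase that joins acetyl-CoA, had 3090 in C and 2949 in CMS, a log2 ratio of -0.07, beside -0.15 for Bdh1. Aacs, which activates acetoacetate in the cytosol, had a ratio of -0.13. Oxct1, the transferase by which brain uses ketone bodies, had 21471 and 21461, and so nearly the same level in both pools. Among 6 genes of malonyl-CoA control, the input that inhibits Cpt1a, 0 were called (2.52% of all genes), with a median of -0.05. Acaca, the carboxylase, had -0.15 on its brightest probe, Mlycd, the decarboxylase, -0.08, and Prkaa2, a catalytic subunit of AMPK, -0.03. The highest log2 ratio of this list went the other way, 0.53 for Acacb (picked after its values were seen).

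PPARA and its other targets formed a list of 21 genes, of which 18 had a ratio. Over 2-fold higher signals in CMS were found for 6 (33.3%, against 1.96% of all genes) and lower ones for 0. Over probes above background on both arrays, 4 of 16 were higher, against 294 of 25442 genes in all. The median log2 ratio was 0.45, and it was 0.27 without scaling, 0.26 over probes above background on both arrays, and 0.14 without filter or bound. Fabp1, the fatty acid binding protein of liver, had 574 in C and 5801 in CMS, a log2 ratio of 3.34. Cyp4a14, an omega-hydroxylase whose products Ehhadh breaks down, had 58.0 and 289, 4.98-fold. Creb3l3, a transcription factor of liver, had 106 and 320, 3.03-fold, and Plin5, a coat protein of lipid droplets, had 121 and 256, 2.11-fold. Cyp4a32 and Cyp4a12a, dim in C, were at least 2.88-fold and at least 2.04-fold higher. Being dim in C alone, they could have a ratio only if higher in CMS. Ppara itself had 1033 and 1012, a log2 ratio of -0.03. Ppargc1a, its coactivator, had -0.10, and Acot1 0.14. Under normexp, the called genes of this list were 3 in place of 6, as Plin5, Cyp4a32 and Cyp4a12a had log2 ratios of 0.72, 0.76 and 0.45. Without scaling they were 4, with Plin5 at 0.91 and Cyp4a12a at 0.85, and Cyp4a12a also lost its call under median scaling and quantile normalization. PPARA targets among the 8 enzymes include Ehhadh, Acadm and Cpt1a, and their log2 ratios were 0.37, -0.08 and 0.03. The other enzymes, whether targets or not, ran from -0.15 for Bdh1 to 0.24 for Cpt2.

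**Figure D5:**
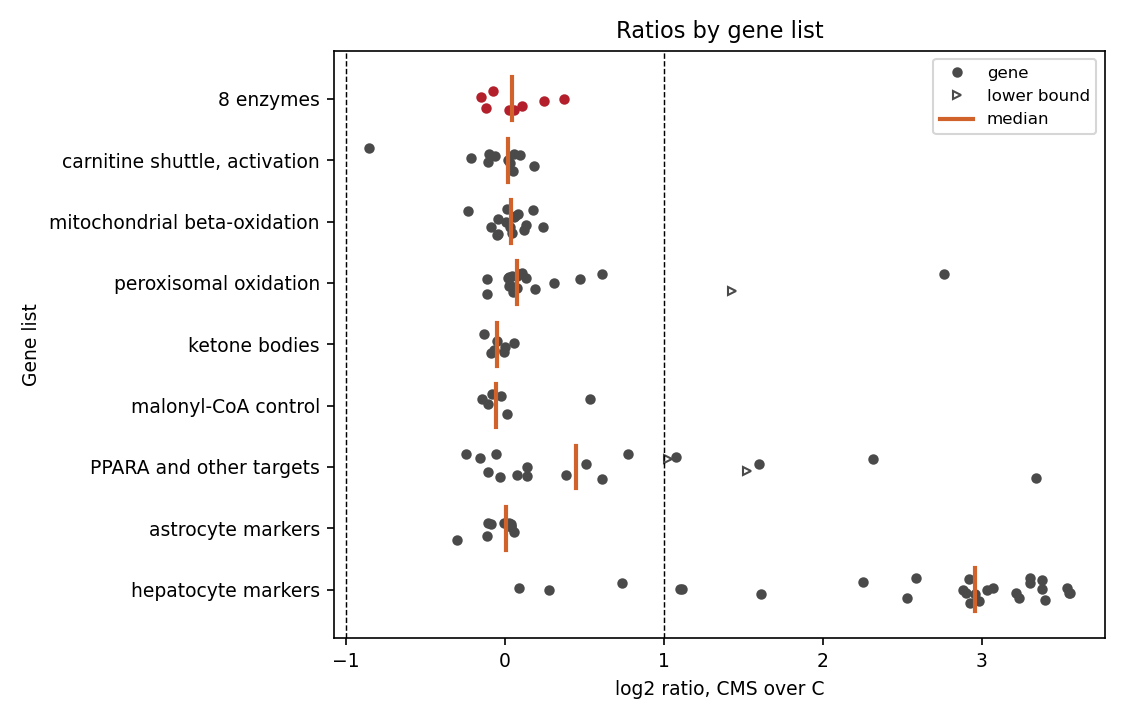
Log2 ratios of CMS over C for the 8 enzymes (red), the genes of the pathway lists used here and the astrocyte and hepatocyte markers, 1 point a gene, with list medians as bars and 2-fold dashed. Open triangles are lower bounds of genes not well above background in C. The 8 enzymes and astrocyte markers gather at 0, and 24 of 27 hepatocyte markers lie above 2-fold, around a median of 2.96.

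Genes of hepatocytes moved beside the called genes. Of 28 hepatocyte markers listed, 27 were on the array and well above background in both pools, and 24 were more than 2-fold higher in CMS. The summed signal of the 27 markers was 516867 in C and 655290 in CMS, of which the brightest Slc10a1 probe alone gave 501222 and 534088. Leaving out Slc10a1, the sum was 15646 in C and 121203 in CMS, 7.75-fold. The probes of Slc10a1 differed in their ratios, but so did those of Fga and Asgr1, which were kept. Such sums add levels of different probes, so that the brightest probes weigh most. Alb, the serum albumin gene, had 1509 and 17486. Serpina1a, a plasma protease inhibitor, had 4275 and 35977, and Hnf4a, a receptor that sets liver gene expression, had 45.1 and 529. None of the 8 enzymes moved to that extent, Acaa1b included, and the part of the hepatocyte markers in the results for Ehhadh, Acox2, Acot12 and the PPARA targets was not tested.

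The markers of PFC cells, 10 genes a list, held 0 called genes. Of all genes, 2.52% were called, so lists this short may hold none at that share. Median log2 ratios were 0.01 for astrocytes, -0.04 for neurons, -0.15 for oligodendrocytes, -0.09 for brain endothelium and 0.05 for microglia. Of 8 erythroid markers 7 were on the array and 6 had a ratio, with 0 called and a median of 0.41. Of the brightest astrocyte genes, Aldoc and Slc1a3 had log2 ratios of -0.11 and -0.09 and S100b one of 0.06.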

How the data were processed

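Pooled PFC RNA of the C mice and of the CMS mice was hybridized to 1 one-color array for each pool, with 59305 spots of 55681 probes. The authors deposited, for each spot, signal intensities from Agilent Feature Extraction 10.10.1.1, background-subtracted and spatially detrended, and a table of the same intensities multiplied by 1 factor per array (1.80 for C and 2.05 for CMS). Before scaling, the mean was 2946 for C and 2611 for CMS, and spots well above background made up 65.2% and 65.9%. No spot was saturated.

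Here control spots and outlier spots (130 and 133) were left out, spots of a probe were averaged, and both arrays were brought to a mean of 2500. A share of 0.5 of its spots set whether a probe was well above background. A probe dim on 1 array took its own signal or, if higher, that array's lowest signal above background (17.8 for C, 17.6 for CMS), and a probe dim on both had no ratio. The error of a difference between ratios combines both scanner errors. Accessions were matched without versions to the RefSeq gene table of GRCm38.p6, which named 30740 spots. Serpina1b and Hbb-b1 were not found by symbol. Some listed genes are not reported here, and the values and counts of the pathway lists leave them out. The build behind the array's annotation was not given in the sources used here.

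The enzymes and the gene lists were chosen with earlier results of these data known. The text names the 8 enzymes with each probe, their paralogs, and of each pathway list the genes past 2-fold and the 3 brightest (of marker lists, Hnf4a and the 3 brightest in the CMS pool, given in part), and says where a gene was added later. The alternatives were scaling to the 75th percentile, the median or the trimmed mean, unscaled arrays, quantile normalization, normexp with an offset of 50 and quantile normalization (on median intensities), the deposited table, no lowest signal, only probes above background on both arrays, no filter and no bound, outlier spots kept, and the mean of all probes. The calling step was tested on simulated data, which checks its arithmetic and not the difference between the groups. Python 3.11.15, numpy 2.4.6, scipy 1.17.1, pandas 2.3.3, limma 3.58.1 and R 4.3.3 were used. The precision is limited by the number of arrays, 1 per group. The behavioral, protein and serum data were not analysed here.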

Additional observations from a re-analysis of the deposited data

How the results depend on the processing

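No paired analysis was possible because each group had 1 array, and for the same reason no array could be left out. None of the 8 enzymes passed 2-fold under any of the 12 alternatives, and no value above or below 2-fold changed sign while called. The count of all genes past 2-fold, 684, was 303 under normexp with quantile normalization, 1076 without a lowest signal, 338 over probes above background on both arrays, while keeping each probe without a bound gave 2562. The count of higher genes, 531, was 265 after normexp, 294 over probes above background on both arrays and 1493 without filter or bound. Without scaling, which moved the median of all genes from -0.03 to -0.20, the median log2 ratios were -0.13 for the 8 enzymes, -0.16 for the carnitine shuttle, -0.13 for mitochondrial oxidation, -0.10 for peroxisomal oxidation, -0.22 for ketone bodies, -0.23 for malonyl-CoA control, 0.27 for PPARA and its other targets and 2.78 for hepatocyte markers. The PPARA list also had 0.26 over probes above background on both arrays, and 0.14 without filter or bound, and the hepatocyte list 2.55 after normexp. The filter settings test fewer or more probes by construction. Leaving out the scaling factors, 0.853 for C and 0.963 for CMS, lowers all log2 ratios by 1 constant, also by construction. For the others the cause was not tested. The called peroxisomal genes were 1 after normexp and 1 over probes above background on both arrays. The lowest signal above background lay 3.64 times under the array median for C and 3.76 times for CMS, so the dim probes of Acox2, Acot12, Crat, Cyp4a12a and Cyp4a32 are among the least certain, and the bounds set there have no order among themselves.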

Other observations

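Some neighbours of the 8 enzymes had probes that differed, and the genes of this paragraph, other than Acaca and Slc10a1, were chosen after their values were seen. Acaca, which makes the malonyl-CoA that inhibits Cpt1a, had log2 ratios of -0.15 and 0.21 on a pair of probes, while a dim probe had 113 in the C pool and 20.1, not well above background, in the CMS pool, at least 5.62-fold higher in the C pool. Acacb, the carboxylase form at the mitochondrial surface beside Cpt1a, had 172 and 249, a log2 ratio of 0.53. Cyp4a10, an omega-hydroxylase, was 1.71-fold and 1.34-fold as high in the CMS pool on 2 probes and at least 6.18-fold on a dim probe. Slc10a1, the bile acid carrier of hepatocytes, had 501222 and 534088 on its brightest probe and was at least 2.03-fold higher on the second. Hacl1, which shortens branched chains in peroxisomes, had 506 and 773, a log2 ratio of 0.61. Amacr and Pex11a, peroxisomal genes printed on 10 spots each, had mean spot ratios of 0.05 ± 0.05 and 0.05 ± 0.06 (SD over 10 spots).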
